A study of Sus scrofa with 10 samples.

Results

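The cyclooxygenases and the enzymes that act with them on arachidonic acid were followed in the liver of 10 female pigs, with 1 GeneChip Porcine array per animal. The list held 9 genes, namely *PTGS1*, *PTGS2*, *PTGES3*, *HPGDS*, *ALOX5AP*, *LTA4H*, *EPHX1*, *EPHX2* and *PLA2G4A*. A gene was taken from the probe sets that the platform annotation gave its symbol and no other, and its value was the mean of those whose log2 signal averaged at least 4 over the 10 arrays. Of the 9 genes, 6 had such a probe set and 5 were measured above that limit, among 4730 genes measured on these arrays. The list was drawn up with earlier H against L results of these data known, *PTGS1* among them, so the group values below are a description and are not independent support for a difference.

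The animals were backcross females of Iberian and Landrace origin, raised under the same management on a standard feed and slaughtered at a common age. The H group (5 animals) and the L group (5 animals) were the extremes for intramuscular fatty acid composition, labelled high and low. H muscle held more polyunsaturated fatty acids and L muscle more saturated and monounsaturated ones. The groups were chosen on carcass and muscle traits, not on the liver, and sibs were placed in opposite groups without it being given here which animals these are. The arrays had similar medians, between 3.77 and 3.84 on the log2 scale, and 17 of 20 hepatocyte markers were measured, averaging 14.49 to 14.80 in H and 14.61 to 14.69 in L, 13 of the 17 with a difference (H minus L) below 0.

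Eicosanoids are short-lived signalling lipids made from arachidonic acid and related polyunsaturated fatty acids. A phospholipase frees the fatty acid from membranes, and it then enters the cyclooxygenase route to prostaglandins and thromboxane, the lipoxygenase route to leukotrienes, or the cytochrome P450 route to epoxides, which epoxide hydrolases open to diols. In liver the P450 and hydrolase steps belong largely to hepatocytes, whereas prostaglandins and leukotrienes are made in good part by Kupffer cells, the resident macrophages, and by other cells of the sinusoid.

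*PTGS1* encodes cyclooxygenase-1, the constitutive enzyme that commits arachidonic acid to prostaglandins. It measured 6.18, 5.998, 6.36, 6.21 and 6.35 in H1 to H5, against 6.36, 6.64, 6.97, 6.63 and 6.90 in L1 to L5 (log2 signal). Every H animal was below every L animal, although the highest H animal (H3) and the lowest L animal (L1) were only 0.0022 apart, and L3 and L5 stood highest. Groups without overlap were found for 0.359% of all genes, and for 0.254% with H lower. How often random group labels would give such a pattern was not tested, and it belongs to the contrast that was known when the list was made. The mean was 6.22 ± 0.15 in the 5 H animals and 6.70 ± 0.24 in the 5 L animals (SD). H minus L was -0.48 on the log2 scale (standard error 0.13, 95% interval -0.76 to -0.20), or 1.40-fold lower in H. By limma it had the 5th smallest p of the 4730 genes, yet it did not pass after Benjamini-Hochberg adjustment (adjusted p = 0.985). No gene passed (0%), whereas 2.64% had an unadjusted p under 0.05, 1.84% lower in H and 0.803% higher. As the RNA came from whole liver, fewer cells of a type and less RNA per cell cannot be told apart here or in the other results.

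The *PTGS1* value rested on 1 of its 2 probe sets. The second stayed at the lowest value of the table, 2.19, on all 10 arrays, and averaging it in brought the log2 difference to -0.24.

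*PTGS2* encodes cyclooxygenase-2, the inducible enzyme of inflamed tissue. Its single probe set averaged 3.20, under the limit, and was within 0.5 of the lowest value on 4 of the 10 arrays. The values were 2.93, 2.65, 4.08, 3.41 and 2.66 in H1 to H5, against 2.65, 2.65, 3.24, 2.82 and 4.90 in L1 to L5. L5 was the highest animal and H3 the second, and the groups overlapped over most of their range. The log2 difference was -0.10 with a standard error of 0.49, so no difference was detectable at this signal.

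**Figure D1:**
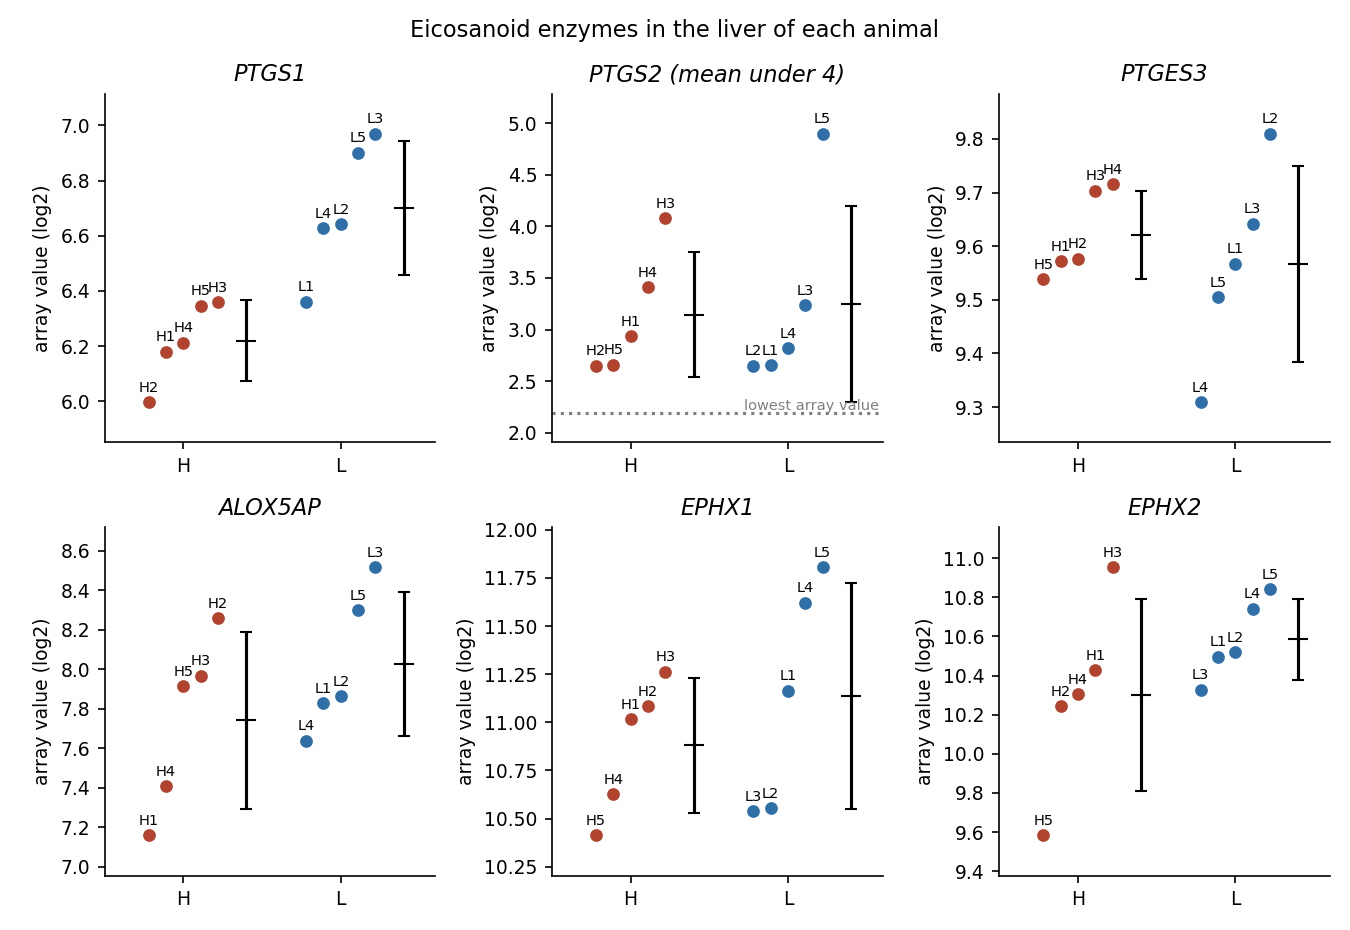
Log2 array value of each enzyme in each animal, with H on the left and L on the right of each panel, points ordered by value within a group, and the bar giving the mean ± SD (n = 5 each). *PTGS1* is the panel in which the groups part, by 0.0022 between H3 and L1, while the other panels overlap, and *PTGS2* lies within 0.5 of the lowest value of 2.19 in 4 of the 10 animals.

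*PTGES3* encodes the cytosolic prostaglandin E synthase, which is also p23, a co-chaperone of Hsp90. It measured 9.57, 9.58, 9.70, 9.72 and 9.54 in H1 to H5, against 9.57, 9.81, 9.64, 9.31 and 9.51 in L1 to L5. The H animals lay inside the range of the L animals, in which L2 was highest and L4 lowest. The log2 difference was 0.05 (standard error 0.10, 95% interval -0.16 to 0.27, limma adjusted p = 0.985). Its 2 probe sets, averaging 10.42 and 8.77, gave differences of 0.05 and 0.06, but ordered the animals differently: their correlation over the 10 animals was r = 0.370 (permutation p = 0.304; rho = 0.212, permutation p = 0.561), and r = -0.372 without L2 and L4. The averaged value therefore mixes a pair of weakly related signals. At the level of probe sets none of 11756 passed the adjusted threshold (0%), and 3.09% had an unadjusted p under 0.05.

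*HPGDS*, the prostaglandin D synthase of blood-derived cells, is not analysed here, because no probe set carried its symbol alone. Of 19 other genes of prostanoid synthesis, transport and breakdown, 10 had a probe set and 7 were measured; 4 differences were above 0 and 3 below, none past the adjusted threshold, with a median of 0.01 beside -0.04 over all genes. *AKR1CL1*, an aldo-keto reductase, had the smallest p of them. It measured 10.71, 10.28, 10.24, 9.81 and 10.49 in H1 to H5, against 10.13, 10.12, 9.50, 10.09 and 9.53 in L1 to L5, with overlap through H4. H minus L was 0.43 (standard error 0.19), which did not pass (limma adjusted p = 0.985). *CBR1*, a carbonyl reductase that acts on prostaglandin E, had a larger difference of 1.54, but with a standard error of 1.03, because the animals ran between 3.49 (L5) and 10.65 (H4). *PTGDS*, the lipocalin-type prostaglandin D synthase, differed by -0.40 (standard error 0.38), and *PTGR2*, which reduces prostaglandin metabolites, by -0.03 (standard error 0.07). The inducible prostaglandin E synthase *PTGES* and the thromboxane synthase *TBXAS1* did not reach the limit on any array, with highest values of 2.73 and 3.19. Of 9 prostanoid receptors, 2 had a probe set and neither was measured: *PTGFR* was at the lowest value on every array and *PTGER3* reached 2.21.

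*ALOX5AP* encodes FLAP, the membrane protein that hands arachidonic acid to the 5-lipoxygenase at the start of leukotriene synthesis. It measured 7.16, 8.26, 7.97, 7.41 and 7.91 in H1 to H5, against 7.83, 7.86, 8.52, 7.64 and 8.30 in L1 to L5. The groups overlapped widely, with H1 and H4 lowest and L3 highest. The means were 7.74 ± 0.45 in the 5 H animals and 8.03 ± 0.36 in the 5 L animals (SD), and H minus L was -0.29 on the log2 scale (standard error 0.23, 95% interval -0.81 to 0.23, limma adjusted p = 0.985). Its size depended on single animals, from -0.42 without H2 to -0.14 without H1.

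*LTA4H*, the hydrolase that completes leukotriene B synthesis, is not analysed here for the same reason as *HPGDS*. Of 23 other leukotriene and lipoxygenase genes, 6 had a probe set and 1 was measured, *MGST3*, a microsomal glutathione transferase that can form leukotriene C. Its difference was 0.13 (standard error 0.13). The remaining 5, *ALOX15*, *GGT1*, *DPEP1* and the leukotriene receptors *CYSLTR1* and *CYSLTR2*, averaged under 3, so FLAP and *MGST3* were the proteins of this route whose genes were measured.

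*EPHX1* and *EPHX2* encode the microsomal and the soluble epoxide hydrolase. The soluble enzyme opens the epoxides of arachidonic acid, and the microsomal one is best known for detoxifying foreign epoxides. *EPHX1* measured 11.01, 11.08, 11.26, 10.63 and 10.41 in H1 to H5, against 11.16, 10.55, 10.54, 11.62 and 11.81 in L1 to L5. L4 and L5 were above every H animal, but L2 and L3 were close to the lowest, and the L animals spread more widely (SD 0.59) than the H animals (SD 0.35); the difference in spread was not tested. The log2 difference was -0.26 (standard error 0.28, 95% interval -0.87 to 0.35, limma adjusted p = 0.985), and between -0.41 without L3 and -0.09 without L5. *EPHX2* measured 10.43, 10.24, 10.95, 10.30 and 9.58 in H1 to H5, against 10.50, 10.52, 10.33, 10.74 and 10.84 in L1 to L5. H5 was the lowest animal and H3 the highest, so both ends of the range were in H. The log2 difference was -0.28 (standard error 0.22, 95% interval -0.76 to 0.20, limma adjusted p = 0.985), and between -0.45 without H3 and -0.10 without H5.

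The P450 enzymes stand before the hydrolases, as they make the epoxides. Of 25 listed P450 and related genes, 7 had a probe set and all 7 were measured. Of these, 3 were above 0 and 4 below with a median of -0.14, and none passed the adjusted threshold. Some passed the limit of 4 on average but not in every animal. *CYP2J34* was above it in H5, L2 and L5 only (7.02, 6.43 and 6.42), and *CYP2C36* ran from 2.53 (L3) to 11.17 (H4). *CYP2C49* differed by 0.83 (standard error 0.45), *CYP2C33* by -0.14 (standard error 0.08), *CYP2C32* by 0.79 (standard error 0.54) and *CYP2C42* by -0.72 (standard error 0.56). Members of this family share sequence, and their probe sets may read more than 1 of them, so single genes are uncertain.

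*PLA2G4A*, the cytosolic phospholipase that frees arachidonic acid, is not analysed here, again for lack of a probe set under its symbol alone. Of 25 other genes of phospholipid release, 7 had a probe set and 6 were measured, 2 above 0 and 4 below (median -0.09). *MGLL*, the monoacylglycerol lipase, averaged 6.17 ± 0.76 in the 5 H animals and 7.09 ± 1.37 in the 5 L animals (SD), with a difference of -0.92 (standard error 0.62). *FAAH*, which hydrolyses the amides of arachidonic acid, differed by -0.30 (standard error 0.20), the secreted phospholipase *PLA2G12B* by -0.12 (standard error 0.11) and the phospholipase activator *PLAA* by 0.09 (standard error 0.15). Of 17 genes that make arachidonic acid or bind it into lipids, 12 had a probe set and 8 were measured, 4 above 0 and 4 below (median -0.04). *ACSL4*, the acyl-CoA synthetase that prefers arachidonic acid, differed by 0.36 (standard error 0.19), *ACSL3* by 0.26 (standard error 0.24), *AGPAT3* by -0.20 (standard error 0.20) and *ACSL1* by -0.10 (standard error 0.07). None of these genes passed the adjusted threshold on the release or the supply side.

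**Figure D2:**
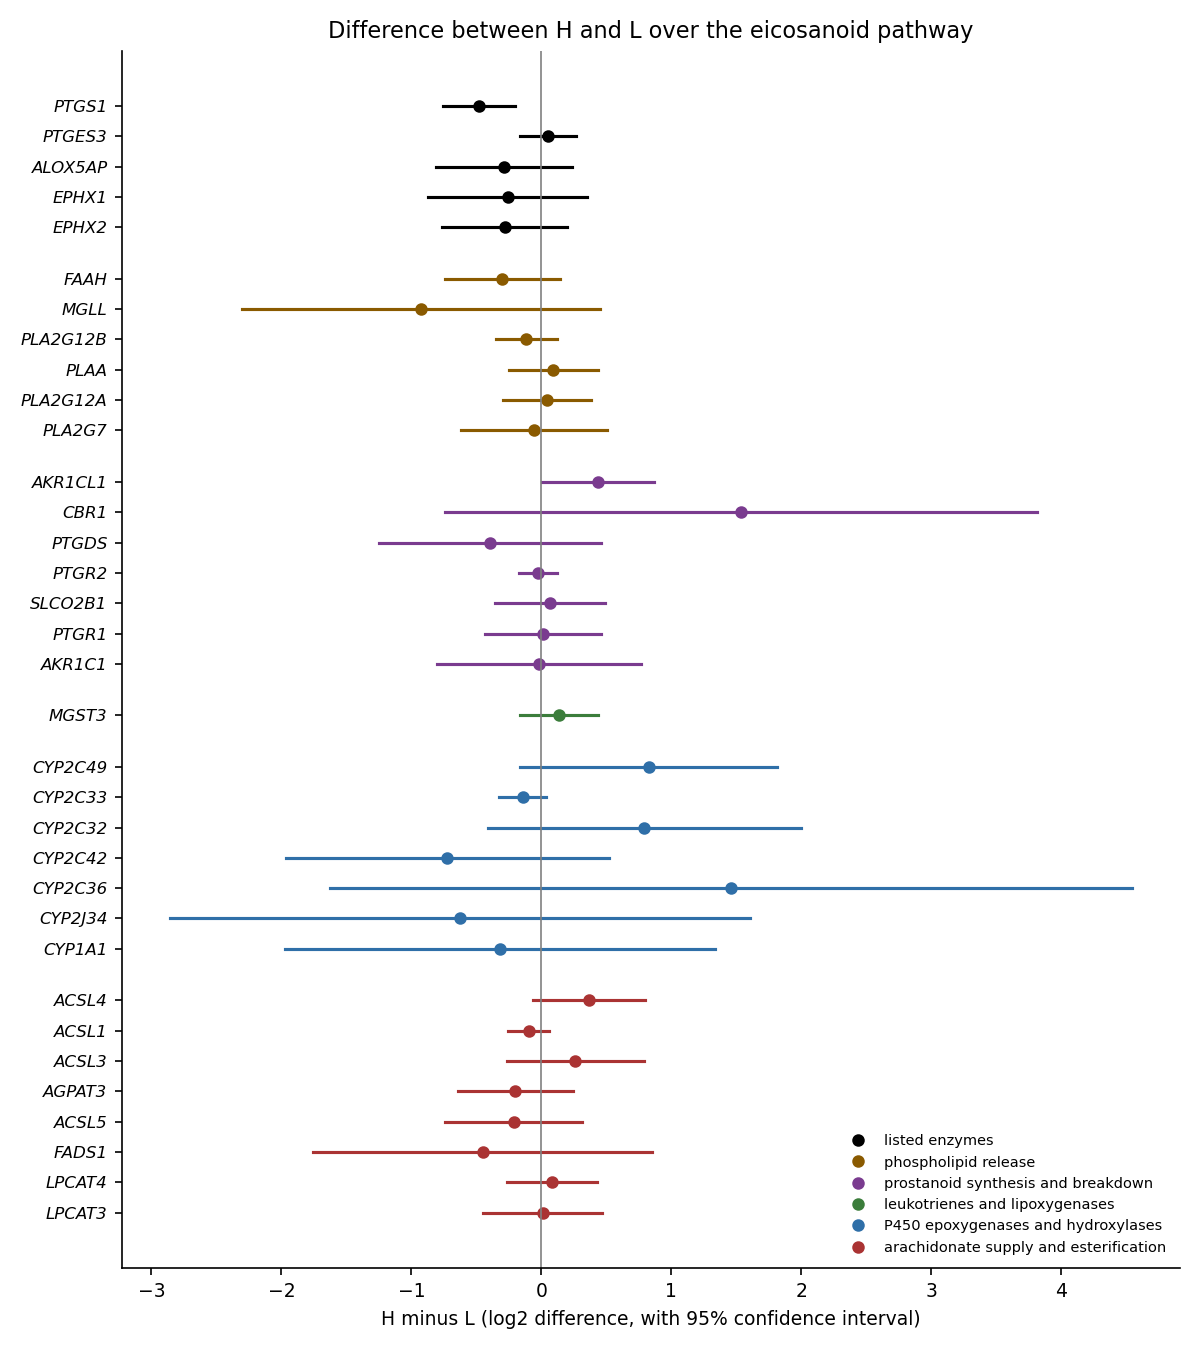
Log2 difference (H minus L, horizontal axis) of the 5 measured enzymes and of the 29 measured genes of the wider pathway, with limma's 95% interval, coloured by step. The interval of *PTGS1*, -0.76 to -0.20, lies clear of 0 without adjustment, whereas those of *CBR1* and of several P450 genes span more than the whole range of the listed enzymes.

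Of the 5 measured enzymes, 4 had a log2 difference below 0, with a median of -0.28. Over all 4730 genes 62.8% were below 0, with a median of -0.04, so 4 of 5 is close to the background in direction. The enzymes differed in how much animals of the same group varied. The pooled SD within groups was 0.14 for *PTGES3* and 0.20 for *PTGS1*, below the median of 0.22 over all genes, and 0.38, 0.41 and 0.48 for *EPHX2*, *ALOX5AP* and *EPHX1*, which exceeded the SD of 81.8%, 85.1% and 90.4% of genes. The lowest and the highest animal lay 2.59-fold, 2.56-fold and 2.63-fold apart for these 3 genes, against 1.41-fold for *PTGES3* and 1.96-fold for *PTGS1*. A difference of the size seen for *PTGS1* would therefore be less than 2 standard errors for *EPHX1*, with its error of 0.28.

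The enzymes were next compared with each other over the animals, in 10 pairs. None passed after adjustment by Pearson's r. The nearest was the pair of hydrolases, with r = 0.735 over the 10 animals (permutation p = 0.0108, adjusted p = 0.108) and rho = 0.733 (permutation p = 0.0198, adjusted p = 0.198). H5 was lowest for both hydrolases, and L5 and L4 were among the 3 highest for both. Without H5 and L5 r was 0.603, and with each group centred on its mean it was 0.707 (exact permutation p = 0.00299, adjusted p = 0.0299), so this pair passed in 1 of the ways of computing it. *PTGES3* ran against *EPHX1*, with r = -0.609 (adjusted permutation p = 0.290; rho = -0.455), and r = -0.342 without L2 and L4. The *PTGES3* correlations depended on the probe set. Its brighter probe set alone had r = -0.693 with *EPHX1*, -0.398 with *EPHX2* and 0.368 with *ALOX5AP*, none past the adjusted threshold. For the last 2 the averaged value gave -0.042 and 0.038. *PTGS1* and *ALOX5AP*, which open the prostaglandin and the leukotriene route, had r = 0.511 (adjusted permutation p = 0.440; rho = 0.467). That value rested on L3 and L5, the highest animals for *PTGS1*, since r was -0.051 without them, while without H2 it was 0.828. The other 7 pairs had r between -0.106 and 0.322.

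Markers of the other liver cell types were set beside the enzymes, since whole liver was sampled. Of 22 Kupffer cell and macrophage markers, 15 had a probe set and 12 were measured; 10 of the 12 were below 0 (median -0.18, none past the adjusted threshold), beside 62.8% of all genes and 13 of the 17 hepatocyte markers. The mean of the 12 ranged over 8.85 to 9.37 in H and 8.96 to 9.43 in L. *MARCO*, a scavenger receptor of Kupffer cells, was at the lowest value on every array. The Kupffer marker mean went with *ALOX5AP* at r = 0.762 (permutation p = 0.0109, adjusted over 15 relations p = 0.106) and rho = 0.855 (permutation p = 0.00301, adjusted p = 0.0452), so the rank correlation passed and r did not. Without H1 and H4, the animals with the lowest marker mean, r was 0.486, and without H2, which was high for *ALOX5AP* at a middling marker mean, it was 0.885 (adjusted exact permutation p = 0.00542). *PTGS1* and the Kupffer marker mean had r = 0.723 (permutation p = 0.0212, adjusted p = 0.106), rho = 0.721 (adjusted permutation p = 0.178), and r = 0.649 without H1 and H4. With each group centred on its mean, r with these markers was 0.725 for *ALOX5AP* (exact permutation p = 0.0378, adjusted p = 0.189). For *PTGS1* it was then 0.775 (exact permutation p = 0.00896, adjusted p = 0.0922), and neither passed. The hydrolases had lower r with these markers, 0.029 for *EPHX1* and 0.143 for *EPHX2* (adjusted permutation p = 0.935 and 0.890).

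With the Kupffer marker mean as a covariate, an alternative added after the data were seen, the log2 difference of *ALOX5AP* was -0.08 (standard error 0.19) and that of *PTGS1* was -0.37 (standard error 0.10), both with a limma adjusted p of 0.997. The differences of *EPHX1*, *EPHX2* and *PTGES3* were -0.28, -0.28 and 0.07 with the covariate, close to their values without it.

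**Figure D3:**
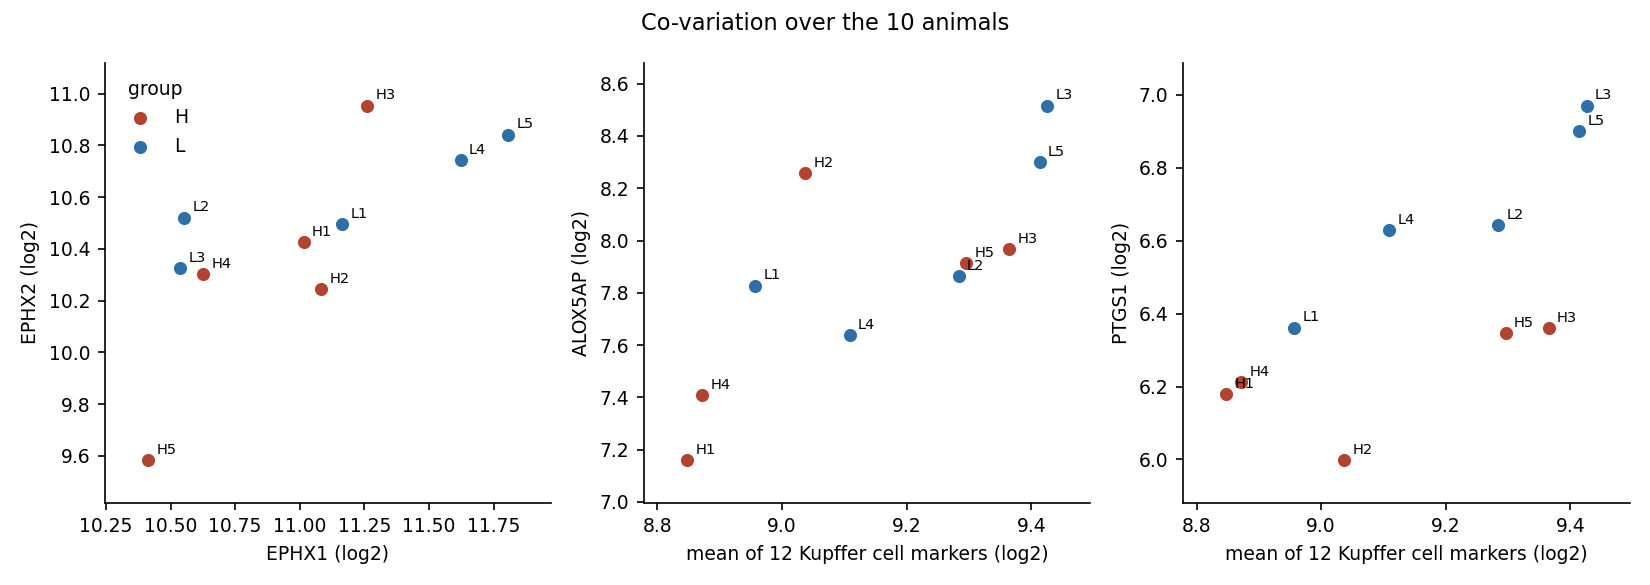
Values of the 10 animals (log2, H red and L blue) for *EPHX2* against *EPHX1*, and for *ALOX5AP* and *PTGS1* against the mean of 12 Kupffer cell markers. The pairs had r = 0.735, 0.762 and 0.723; H5 is low for both hydrolases, and H2 lies above the trend for *ALOX5AP* and below it for *PTGS1*.

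Of 19 stellate cell and fibroblast markers, 12 had a probe set and 10 were measured, 5 above 0 and 5 below. These averaged 7.48 to 7.88 in H and 7.41 to 8.10 in L. Their mean went with *EPHX1* at r = 0.748 (adjusted permutation p = 0.106; rho = 0.636) and with *EPHX2* at r = 0.628 (adjusted permutation p = 0.179; rho = 0.552). Without L4 and L5, r was 0.288 for *EPHX1* and 0.475 for *EPHX2*, so the *EPHX1* value rested on these animals. Of 21 endothelial markers, 14 had a probe set and 7 were measured. All 7 were below 0 (median -0.06, beside -0.04 and 62.8% below 0 over all genes), averaging 6.46 to 6.94 in H and 6.34 to 7.16 in L. Over the 10 animals no enzyme reached an r of 0.5 with their mean. For *ALOX5AP* rho was 0.539, and for *PTGS1* r was 0.564 with the groups centred, neither past the adjusted threshold. Without H3 and L5, r was 0.343 for *PTGS1*, 0.704 for *PTGES3*, 0.331 for *ALOX5AP*, -0.755 for *EPHX1* and -0.329 for *EPHX2*. The vascular markers *VWF* and *KDR* were under 3 on every array. Platelets and mast cells are known for cyclooxygenase-1 and neutrophils for FLAP. Of their lists, 4 of 11 platelet, 3 of 10 mast cell and 9 of 16 neutrophil genes had a probe set. In each list 1 gene was measured, namely *ITGB3*, *MS4A2* and *FCGR3A* in this order. The platelet genes *GP9* and *PPBP* and the neutrophil gene *S100A8* were at the lowest value on every array. Of the T and NK cell list 4 genes were measured, all 4 below 0 (median -0.20, beside 62.8% of all genes below 0), of the cholangiocyte list 4, with 3 below 0 (median -0.05), and of the B and plasma cell list 1, *JCHAIN*, at -0.41. Some markers repeated 1 value over several arrays of both groups, so the signs of their differences rest on the other arrays. Examples are *CD247* at 5.06 and *KLRK1* at 5.83 among the T and NK cell markers, and *DES* at 4.53 and *COL1A2* at 6.17 among the stellate markers. Apart from the fit with the Kupffer marker mean as a covariate, no marker mean was fitted with the group values. The part of any of these cells in the group values was not tested. RNA quality, read as the 3' minus 5' difference of the *GAPDH* control probe sets, averaged 2.02 ± 0.18 over the 5 H animals and 2.12 ± 0.33 over the 5 L animals (SD), and with it as a covariate *PTGS1* differed by -0.54.

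**Figure D4:**
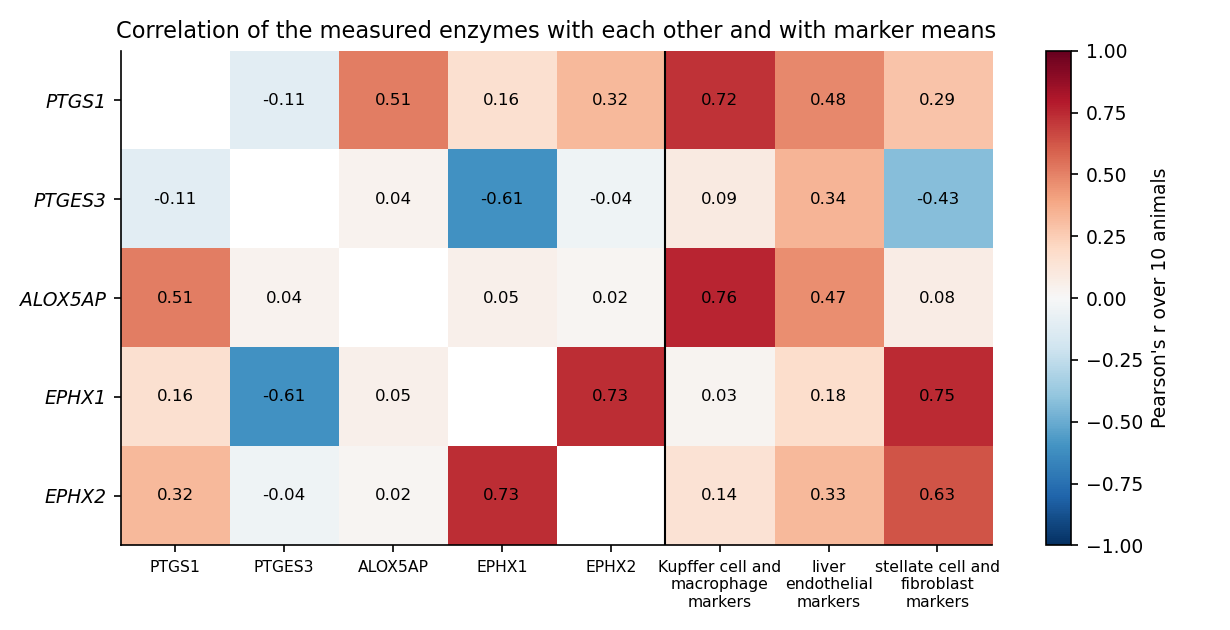
Pearson's r over the 10 animals between the 5 measured enzymes (left of the line) and with the means of 3 lists of cell type markers (right), from -1 in blue to 1 in red. The highest r values are those of the 2 hydrolases with each other and with the stellate markers, and of *PTGS1* and *ALOX5AP* with the Kupffer markers. None of these r values passed after adjustment, and that of *EPHX1* with the stellate markers was 0.288 without L4 and L5.

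The genes whose pattern over the 10 animals was most like each enzyme were listed as a description, taken as the 3 highest r among all 4730 genes. For *PTGS1* these were *SLA-2* (r = 0.925), a swine class I histocompatibility gene whose probe set may also read its relatives, *ERP29* (r = 0.888), a chaperone of the endoplasmic reticulum, and *CCL19* (r = 0.871), a chemokine of lymphoid tissue. All 3 were highest in L3, as *PTGS1* was, and their log2 differences were -0.57, -0.19 and -0.89. For *ALOX5AP* they were *DET1* (r = 0.921), *CD163* (r = 0.907), the haemoglobin scavenger receptor of macrophages and a marker in the Kupffer list, and *NPC1* (r = 0.901), a lysosomal cholesterol transporter. *CD163* ranked the animals much as *ALOX5AP* did (rho = 0.927), with its lowest value, 8.71, in H4 and its highest, 9.47, in L3.

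For *EPHX1* the nearest were *SIDT2* (r = 0.912), *DGAT1* (r = 0.888), which completes triacylglycerol synthesis, and *SLC9A3R1* (r = 0.877), a scaffold protein of the apical membrane. *DGAT1* had its highest value in L5, where *EPHX1* was highest too. For *EPHX2* they were *CES3* (r = 0.908), a carboxylesterase, *CLN8* (r = 0.907) and *TTC3* (r = 0.895). All 3 were lowest in H5, the animal that was also lowest for *EPHX2*, and the rank correlation of *CES3* was lower (rho = 0.624). For *PTGES3* they were *LNPK* (r = 0.939), which shapes the endoplasmic reticulum, *PRKAR1A* (r = 0.857), a regulatory subunit of protein kinase A, and *DCBLD2* (r = 0.836), all lowest in L4. Centring each group on its mean left r between 0.785 and 0.940 for these 15 genes. The 15 were picked for their high r over these same animals, so this is not independent support. How high the top r among all genes would be by chance was not tested.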

How the data were processed

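Liver RNA of 10 females, 5 H and 5 L, was hybridised to 1 GeneChip Porcine array each, and the animal is the replicate. The authors scanned the arrays through GCOS and normalized them by GCRMA in R. RMA is also named in the submitters' processing notes, and no tool version is given in the sources used here. Values as deposited are log2, uncentred, with a common lowest value of 2.19, so differences of dim probe sets are understated. Brightness depends on the probes, so levels were not compared between genes. Of 23999 porcine probe sets, after 124 controls were left out, 10069 had 1 gene symbol in the platform annotation, 198 several and 13732 none; single symbols were updated by Entrez ID through a RefSeq gene table. All 10 columns were used.

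The H against L fits used lmFit and eBayes of limma 3.58.1 (R 4.3.3), two-sided and without covariates, on the 4730 genes and the 11756 probe sets averaging 4 or more, and p-values were adjusted by Benjamini-Hochberg over each table (threshold 0.05). The script was tested on simulated data. Correlations over animals used two-sided permutation tests (Python 3.11.15, scipy 1.17.1, numpy 2.4.6, pandas 2.3.3) of 100000 resamples, exact for 9 animals and within groups, adjusted over 10 enzyme pairs and 15 enzyme and marker pairs. Figures were drawn with matplotlib 3.10.9. The number of arrays limits the precision. Kinship was not modelled.

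The members, the pathway and marker lists and the tests were chosen with earlier results of these data known. The text names every member, of each pathway list up to 4 measured genes with the smallest p, and per measured enzyme the 3 genes with the highest r; other genes were chosen after their values were seen. Alternatives were no filter or a mean of at least 3 or 6, other ways to combine probe sets, quantile normalization, median centring of the arrays, array weights, a *GAPDH* covariate, a replicate block by animal number, another prior, Spearman's rho, centring the groups and leaving out each animal in turn.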

Additional observations from a re-analysis of the deposited data

Results flagged for a closer look

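*PTGS2* was 4.90 in L5 (log2), while the other L animals measured 2.65, 2.65, 3.24 and 2.82, a gap whose share of the group's range exceeded the limit of 0.71 that Dixon's test sets for 5 values. It was the 1 outlying animal among 16 groups of 5 looked at, where chance marks about 1 in 20. The H animals measured 2.65 to 4.08.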

How the results depend on the processing

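No gene or probe set passed the adjusted threshold under any alternative run. Of the values of single genes and pairs, 503 kept their side of the threshold, and 112 counts stayed the same or within 1.5 times. The differences of single genes among the 503 also kept their direction. Correlations that passed in neither run were not held to theirs, and some changed sign. For *PTGS1* with *PTGES3*, r was -0.106 in the main run and 0.107 with the groups centred. At an unadjusted p under 0.05, the 125 genes became 90 without L4, 213 without H2 and 281 without L2, and the 363 probe sets became 237 without L4, 617 without H2 and 685 without L2. The log2 difference of *PTGS1* ranged between -0.57 without L1 and -0.41 without L3, and was -0.24 with no filter, where the probe set at the lowest value was averaged in. That of *PTGES3* was -0.0097 without L4 (highest 0.12, without L2). That of *PTGS2*, with no filter, was 0.02 without H2, 0.02 without H5 and 0.31 without L5 (lowest -0.34, without H3); leaving out animals for *PTGS2* was added after the data were seen. The count of enzyme pairs that passed was 1 with the groups centred, and that of enzyme and marker pairs 1 by Spearman's rho and 0 to 1 over the animals left out, the 1 without H2. The causes were not tested.

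With the animal number as a replicate block, 0 genes passed, 140 had an unadjusted p under 0.05 (393 probe sets), and *PTGS1* differed by -0.48 (standard error 0.10, limma adjusted p = 0.994). Same-numbered animals did not deviate together (correlations of 0.0769, -0.237, -0.0972, 0.281 and 0.0227 for numbers 1 to 5, and 1 of 5 was closest to its own number), so the numbers were not taken as pairs.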
